A study of Mus musculus with 6 samples.

Results

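The allograft of mice given NIL was compared with the allograft of mice left untreated, in mouse hearts removed after transplantation. The comparison rested on 2 of the 6 arrays in the series, 1 on each side, chosen by their titles, and covered all 22626 probe sets other than controls, from which 12393 genes took 1 probe set each. NIL, N-imino ethyl-L-lysine, is an inhibitor of inducible nitric oxide synthase and its dose was 5 mg/kg, repeated every 8 h. The remaining arrays were allografts of mice given ABH4 (4-amino tetrahydrobiopterin, 50 mg/kg every 8 h), BH4 (tetrahydrobiopterin, 50 mg/kg every 8 h) or CsA (cyclosporin A, 15 mg/kg every 24 h), and a heart transplanted between genetically matched mice, the untreated syngraft. Strains, ages, the day of removal and whether RNA of several grafts was pooled are not given in the labels. With 1 array a side there was no replicate and no test, so every difference below describes 2 arrays and may hold the difference between single grafts.

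Inducible nitric oxide synthase, encoded by Nos2, makes large amounts of nitric oxide from arginine in macrophages and other cells that interferon-gamma and bacterial or inflammatory signals have activated. It needs tetrahydrobiopterin as a cofactor, and arginase competes with it for arginine. Nitric oxide activates soluble guanylate cyclase, binds haem and iron-sulphur proteins and modifies cysteines. In rejecting hearts the enzyme is known from infiltrating macrophages and also from cardiomyocytes. NIL acts on the enzyme's activity, which an expression array does not measure.

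Signals below are on a linear scale after each array was rescaled to a common median, and values under a floor of 34.8 were set to it before log2 was taken. A gene at the floor on 1 array has a fold that is a lower bound, given as at least that fold. The arrays differed in their low signals. On the NIL array the deposited median was 86.1 and the lower quartile 28.3, against 77.7 and 22.4 on the untreated allograft array, while the means after trimming were equal. Differences between the 2 arrays varied with signal. Among the 9852 genes above the floor on at least 1 of the 2 arrays, sorted into 10 bins by mean signal over the 6 arrays, the median log2 difference was 0.26 in the second lowest bin and -0.20 in the highest. Where the median difference of a list is given, it is followed by the median relative to genes of like signal, a setting added after seeing the data. Actb had a 3' to 5' probe ratio, a measure of RNA integrity, of 1.04 on the NIL array and 1.12 on the untreated one, and Gapdh of 0.851 and 0.857. The BH4 array stood apart in holding salivary transcripts, with Smr3a at 3169 and below the floor on every other array.

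**Figure D1:**
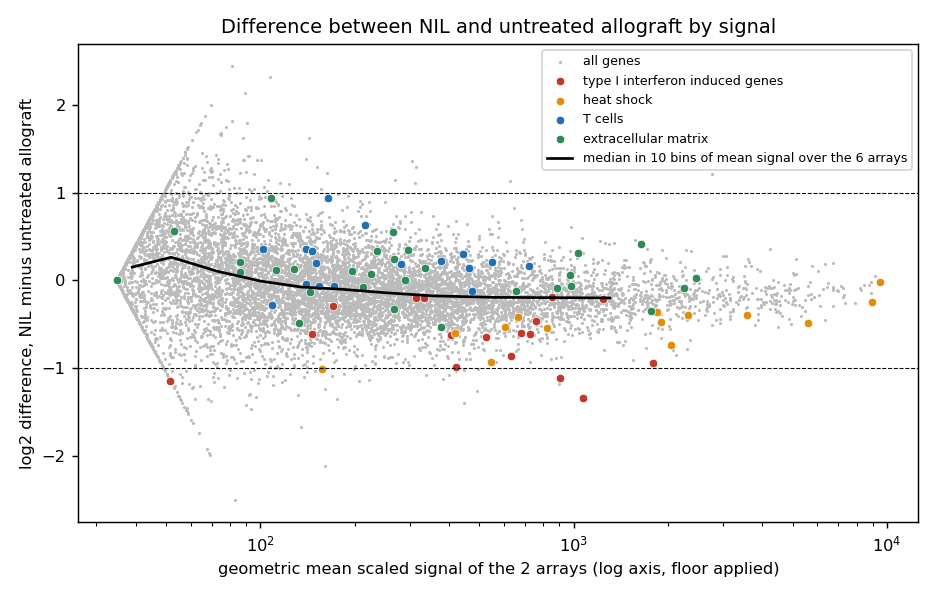
Each grey point is 1 of 12393 genes, placed by the geometric mean scaled signal of the 2 arrays (log axis) and by its log2 difference, NIL minus untreated allograft. The black line joins the median differences in 10 bins of mean signal over the 6 arrays and runs between 0.26 and -0.20, dashed lines mark 2-fold, and type I interferon induced genes (red) lie mostly below the line.

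In all, 165 genes (1.33% of those compared) had at least 2-fold the untreated signal with NIL, and 98 (0.791%) lay at least 2-fold below it. Past 3-fold there were 19 higher (0.153%) and 8 lower (0.0646%). At least 1.5-fold higher were 790 genes (6.37%) and lower 661 (5.33%). Counts of list members at 1.5-fold below are to be read beside these shares. Most of the 2-fold differences were of dim genes. Of the 165 higher genes 65 were bounds against the floor and 13 had a signal over 200 on either array. Of the 98 lower genes 31 were bounds and 25 had a signal over 200. Of the 165, the NIL array was at least 1.5-fold above all 4 arrays other than the untreated allograft for 30 genes, and the untreated allograft was at least 1.5-fold below all 4 for 22. Of the 98 lower genes the NIL array was set apart in the same way for 27 and the untreated allograft for 5. The SD of the log2 difference across genes was 0.38, against 0.29 for ABH4, 0.39 for BH4 and 0.57 for CsA, each set against the same untreated array.

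Nos2, the target of NIL, was dim in the grafts and was not lower with NIL. Its signal was 88.0 with NIL, 61.3 with ABH4, 54.7 with BH4, below the floor with CsA, 73.2 without treatment and below the floor in the syngraft. The NIL array thus held the highest Nos2 signal of the 6, with a log2 difference of 0.27 from the untreated allograft. Nos3, the endothelial synthase, had signals of 218 with NIL and 221 without treatment. Nos1, the neuronal synthase, had dim signals of 57.9 with NIL and 37.8 without treatment. Gch1, which starts and limits the synthesis of that cofactor, had signals of 249 with NIL and 279 without treatment, and its other probe set differed in sign. Of 11 measured genes of nitric oxide synthases and tetrahydrobiopterin, 1 (Nos1) was at least 1.5-fold higher and 0 were lower, with a median log2 difference of 0.02, or 0.12 relative to genes of like signal.

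Among genes that use arginine, Arg2 and Slc7a2 were higher with NIL, both at low signals, and Asl was lower, while Ass1 was not analysed here. Arg1, the cytosolic arginase of activated macrophages, had signals of 1094 with NIL, 1009 with ABH4, 1045 with BH4, 324 with CsA, 864 without treatment and below the floor in the syngraft. NIL and the pteridines all lay above the untreated allograft, by 1.27-fold with NIL. Arg2, the mitochondrial arginase, had signals of 76.2 with NIL and 39.5 without treatment, 1.93-fold higher with NIL. Slc7a2, a transporter that carries arginine into macrophages, had 103 with NIL and 48.3 without treatment, 2.12-fold higher, and ABH4 had 119.9. The other Arg2 and Slc7a2 probe sets were below the floor on both arrays. The means over probe sets were 0.47 for Arg2 and 0.36 for Slc7a2 on the log2 scale. Asl, argininosuccinate lyase, which regenerates arginine from citrulline, was 1.89-fold lower, at 64.2 with NIL and 121 without treatment. Over the 13 measured genes of arginine use and polyamines, 2 were at least 1.5-fold higher and 1 lower, with a median of -0.10 that was 0.03 relative to genes of like signal. Among 11 genes of nitric oxide and cGMP signalling 3 were at least 1.5-fold higher and 0 lower, with a median of 0.01, or 0.00. These were Gucy1a1, a subunit of soluble guanylate cyclase (63.7 with NIL and 36.1 without treatment), Kcnmb1, a potassium channel subunit (63.4 with NIL and below the floor without treatment), and the phosphodiesterase Pde3a (68.0 with NIL and 36.4 without treatment, with another probe set of opposite sign). All 3 lay in the signal range where the median gene was higher with NIL. Hmox1, haem oxygenase 1, had signals of 1556 with NIL and 1161 without treatment, while ABH4 had 1598, BH4 had 1624 and CsA had 1168, near the untreated allograft.

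Type I interferon induced genes were lower with NIL than in the untreated allograft. These genes encode antiviral proteins and are switched on through interferon receptors and the factor ISGF3, which binds a promoter sequence called the interferon-stimulated response element. Of 17 measured genes 11 were at least 1.5-fold lower and 0 higher, where 5.33% of all genes were that much lower, and the other 6 were also below the untreated allograft. Their median log2 difference was -0.61, and -0.42 relative to genes of like signal.

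Promoters of members are shown because these genes were lower together. The windows run from 250 bases before to 50 bases after the start of the gene, from RefSeq on GRCm38.p6, 5′ to 3′ on the gene's strand, with capitals marking a core of the response element, GAAA, any 2 bases and GAAA again, which in both windows reads as its reverse complement. Rsad2 lies at chr12:26456403-26456702 on the minus strand and Ifit1 at chr19:34640639-34640938 on the plus strand.
Rsad2: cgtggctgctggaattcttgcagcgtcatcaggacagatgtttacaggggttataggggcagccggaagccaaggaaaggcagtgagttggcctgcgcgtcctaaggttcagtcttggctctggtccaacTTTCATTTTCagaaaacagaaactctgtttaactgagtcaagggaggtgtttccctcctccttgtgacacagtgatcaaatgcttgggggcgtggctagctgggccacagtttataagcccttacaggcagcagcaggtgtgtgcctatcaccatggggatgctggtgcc
Ifit1: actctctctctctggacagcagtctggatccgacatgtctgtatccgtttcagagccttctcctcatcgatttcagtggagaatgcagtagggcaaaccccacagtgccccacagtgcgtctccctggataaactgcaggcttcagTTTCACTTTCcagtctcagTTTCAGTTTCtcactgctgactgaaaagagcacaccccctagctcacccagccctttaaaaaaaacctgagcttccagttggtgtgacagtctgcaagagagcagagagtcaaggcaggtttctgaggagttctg
A window was found for 13 of the 17 genes, and 7 of the 13 held a match on either strand, against 3.99% of 27025 genes with a window in the same table. The 7 were Bst2, Ifih1, Ifit1, Ifit3, Oas1a, Oas3 and Rsad2, whose log2 differences ran between -1.34 for Rsad2 and -0.19 for Oas1a. A match is a description of letters and does not show that a factor bound there.

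Rsad2, which encodes the antiviral enzyme viperin, had the largest difference of the list. Its signals were 675 with NIL, 1127 with ABH4, 1108 with BH4, 796 with CsA, 1707 without treatment and 373 in the syngraft. Its 3 probe sets differed by -1.34, -1.36 and -1.51 on the log2 scale. The untreated allograft was the highest array and NIL the lowest of the 5 allografts, still above the syngraft. Ifit1, which binds foreign RNA, had signals of 616 with NIL, 957 with ABH4, 1164 with BH4, 754 with CsA, 1334 without treatment and 171 in the syngraft, and was 2.17-fold lower with NIL. Usp18, which removes ISG15 from proteins and dampens the interferon receptor, had 300.0 with NIL, 482 with ABH4, 513 with BH4, 349 with CsA, 595 without treatment and 109 in the syngraft. Ifit3 had signals of 1293 with NIL and 2471 without treatment, and Bst2, a surface protein that tethers viruses, had 467 with NIL and 849.8 without treatment. In each of these the NIL value was well under the untreated one. Mx2, a dynamin-like antiviral GTPase, had a signal of 76.6 in the untreated allograft and was below the floor with NIL, at least 2.20-fold lower. Slfn4, a member of the Schlafen family induced in myeloid cells and not on the list, had signals of 317 with NIL and 761 without treatment. At the other end Oas1a, Oasl1, Oas2, Irf7 and Isg20 stood between -0.29 and -0.19, about the level of other bright genes.

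The untreated allograft was the highest of the 5 allografts for 14 of the 17 genes, where 19.7% of all genes had the untreated array above all 4 treated ones, and NIL was the lowest for 4, where 15.5% of all genes had it lowest. The list's median against the same untreated array was -0.30 for ABH4, -0.23 for BH4 and -0.82 for CsA. Set against arrays other than the untreated one, the median of NIL was -0.35 from ABH4, -0.32 from BH4 and 0.19 from CsA. Relative to genes of like signal the first pair were -0.24 and -0.17.

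**Figure D2:**
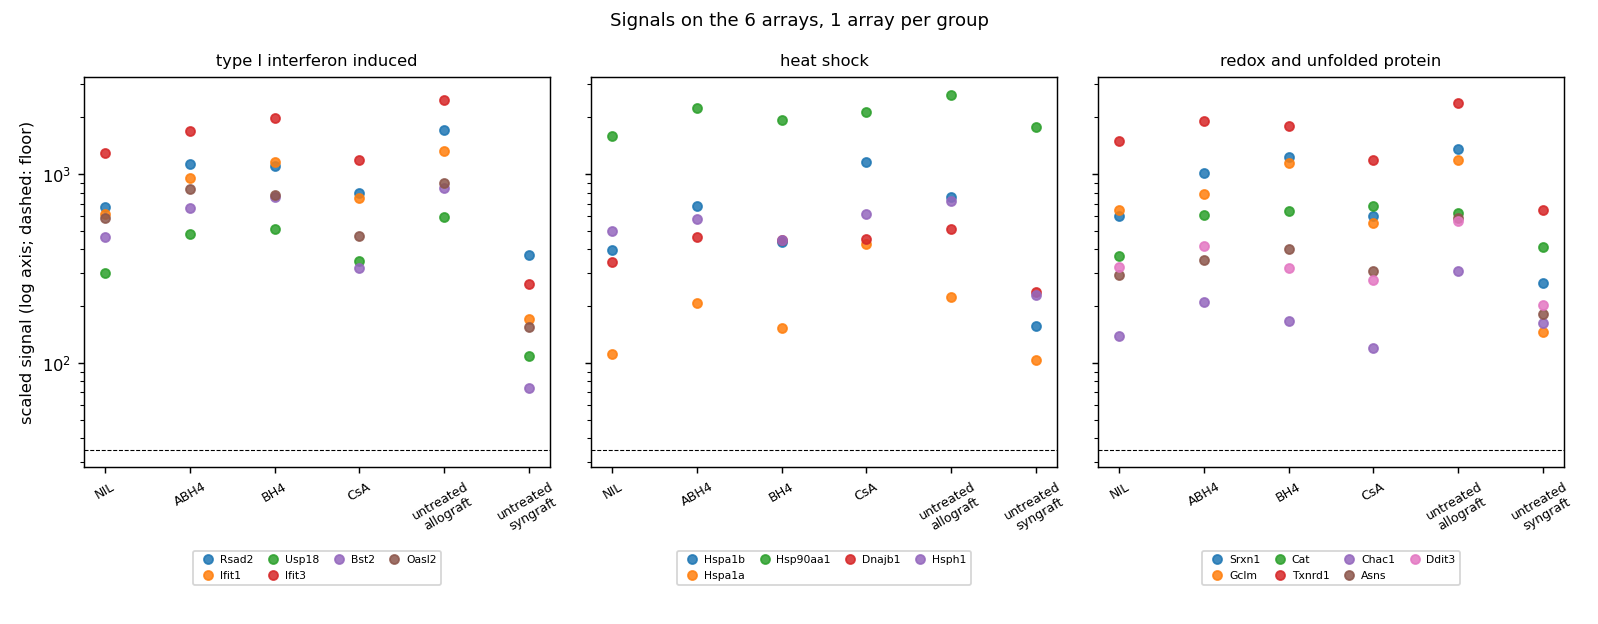
Points are the scaled signals (log axis) of named genes on each of the 6 arrays, with a dashed line at the floor of 34.8, for type I interferon induced genes, heat shock genes, and redox and unfolded protein response genes. Rsad2 stands at 675 with NIL, against 1707 in the untreated allograft, and Hspa1b at 396 with NIL, against 756.

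Interferon-gamma induced genes were mostly within 1.5-fold of the untreated allograft. Of 21 measured genes 3 were at least 1.5-fold lower, against 5.33% of all genes, and 0 higher. In all, 18 had a difference below 0, the untreated allograft was the highest of the 5 allografts for 11, against 19.7% of all genes, and the median was -0.24, or -0.05 relative to genes of like signal. The 3 were Irgm2, an immunity-related GTPase (1579 with NIL and 2744 without treatment), Socs1, a feedback inhibitor of cytokine signalling (252 with NIL and 403 without treatment), and Gbp7, a guanylate-binding protein (1426 with NIL and 2158 without treatment). Cxcl9, a T cell chemoattractant, had signals of 3712 with NIL and 3938 without treatment, against 159 in the syngraft. Cxcl10, its relative, had 1222 with NIL and 1442 without treatment. Ifng itself had signals of 484 with NIL, 738 with ABH4, 400.0 with BH4, 102 with CsA, 586 without treatment and below the floor in the syngraft. The list's median stood 3.30 above the syngraft with NIL.

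Part of the heat shock genes were lower with NIL. They encode chaperones that refold damaged proteins under the factor HSF1. Of 14 measured genes 4 were at least 1.5-fold lower and 0 higher, where 5.33% of all genes were that much lower. All 14 had a difference below 0, 10 of them by less than 1.5-fold, and the median was -0.48, or -0.29 relative to genes of like signal. Hspa1b, an inducible Hsp70, had signals of 396 with NIL, 680.1 with ABH4, 437 with BH4, 1168 with CsA, 756 without treatment and 158 in the syngraft. Hspa1a, whose sequence is nearly identical so that probes may read both, had 111 with NIL, 208 with ABH4, 154 with BH4, 425 with CsA, 224 without treatment and 104 in the syngraft. For both genes CsA was the highest array, and NIL was the lowest of the 5 allografts. Hsp90aa1, the inducible Hsp90, had signals of 1586 with NIL and 2635 without treatment, and Dnajb1, a co-chaperone of Hsp70, had 341 with NIL and 515 without treatment. NIL was the lowest of the 5 allografts for 7 of the 14, where 15.5% of all genes had it lowest. The untreated allograft was the highest for 10, where 19.7% of all genes had it highest. The small heat shock protein Hspb1, near the top of the signal range, had 9470.3 with NIL and 9567 without treatment. The medians of the other treatments against the same untreated array were -0.23 for ABH4, -0.23 for BH4 and -0.36 for CsA. Directly against these arrays, the median of NIL was -0.19 from ABH4, -0.24 from BH4 and -0.10 from CsA. Relative to genes of like signal these were -0.12, -0.07 and -0.06.

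Genes of oxidative defence, many of them targets of the factor Nrf2, differed in both directions, more often downward. Of 17 measured genes 5 were at least 1.5-fold lower, against 5.33% of all genes, and 1 was higher. In all, 13 had a difference below 0 and 3 above it, with a median of -0.43, or -0.25 relative to genes of like signal. Srxn1, sulfiredoxin, which reactivates peroxiredoxins, had signals of 599.7 with NIL, 1022 with ABH4, 1228 with BH4, 599 with CsA, 1354 without treatment and 265 in the syngraft. Of its 4 probe sets 3 were lower with NIL and 1 was higher. Gclm, a subunit of the rate-limiting enzyme of glutathione synthesis, had 649 with NIL, 786 with ABH4, 1148 with BH4, 554 with CsA, 1194 without treatment and 147 in the syngraft. For both genes NIL was close to CsA and well below the untreated allograft, but above the syngraft. Cat, catalase, had signals of 368 with NIL, 606 with ABH4, 642 with BH4, 680.4 with CsA, 626 without treatment and 410.3 in the syngraft, the lowest of all arrays with NIL. Txnrd1, thioredoxin reductase, had 1508 with NIL and 2379 without treatment, and Gsr, glutathione reductase, had 269.9 with NIL and 413 without treatment. The gene that was higher was Slc7a11, the cystine importer, with a log2 difference of 0.67. Nqo1, a quinone reductase that is also an Nrf2 target, had 428 with NIL and 443 without treatment. Against the same untreated array the list's median was -0.06 for ABH4, -0.06 for BH4 and -0.45 for CsA. The median of NIL was -0.25 from ABH4, -0.35 from BH4 and 0.02 from CsA. For 8 of the 17 the untreated allograft was the highest of the 5 allografts, against 19.7% of all genes.

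The antioxidant response element, to which Nrf2 binds, has the core TGACNNNGC. A promoter window was found for 14 of the 17 genes and 5 held the core on either strand (Gclm, Mt2, Sod1, Srxn1 and Txnrd1), against 14% of genes with a window. The window of Gclm, at chr3:122245307-122245606 on the plus strand of GRCm38.p6, is shown with the match in capitals, as the reverse complement.
Gclm: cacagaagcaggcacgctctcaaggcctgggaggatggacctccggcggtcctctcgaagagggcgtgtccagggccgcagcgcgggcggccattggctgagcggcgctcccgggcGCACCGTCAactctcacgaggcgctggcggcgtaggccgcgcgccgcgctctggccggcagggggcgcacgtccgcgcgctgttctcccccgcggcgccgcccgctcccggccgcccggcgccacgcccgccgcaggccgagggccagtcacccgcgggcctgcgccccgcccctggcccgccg

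Further genes outside the list were lower. Gpx3, the extracellular glutathione peroxidase, had 276 with NIL, 411 with ABH4, 669 with BH4, 840.5 with CsA, 726 without treatment and 5527 in the syngraft, the lowest of the 6 with NIL and far below the syngraft on every allograft. Clpx, the unfoldase of a mitochondrial protease, was 3.19-fold lower at 75.4 with NIL and 240.4 without treatment, and Sesn2, a stress-induced inhibitor of mTORC1, 2.52-fold lower at 61.2 with NIL and 154 without treatment. Xdh, xanthine dehydrogenase, a source of superoxide, had 657 with NIL and 908 without treatment. The NADPH oxidase subunits Cybb, Cyba, Ncf1 and Ncf4 had log2 differences between 0.04 and 0.10, and 0 of 7 genes of that list were at least 1.5-fold apart (median 0.04, or 0.21 relative to genes of like signal).

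Within the unfolded protein response list 4 of 16 genes were at least 1.5-fold lower, against 5.33% of all genes, and 0 were that much higher. A difference below 0 was seen in 14 and above 0 in 2. The median was -0.38, or -0.22 relative to genes of like signal. The 4 are known targets of the amino acid and endoplasmic reticulum stress factor ATF4 or belong to its pathway. Chac1, which degrades glutathione, had signals of 139.6 with NIL, 209.5 with ABH4, 168 with BH4, 121 with CsA, 307 without treatment and 163 in the syngraft. Asns, asparagine synthetase, had 294 with NIL, 353 with ABH4, 403 with BH4, 307 with CsA, 584 without treatment and 182 in the syngraft. Atf3 had 261 with NIL and 461 without treatment, and Ddit3, a transcription factor also called CHOP, had 324 with NIL and 567 without treatment. For all 4 the untreated allograft was the highest of the 6 arrays. The chaperones of the endoplasmic reticulum differed less, with Hspa5 (BiP) at 3127 with NIL and 4091 without treatment and Hsp90b1 at 1088 with NIL and 1141 without treatment. The list's median was -0.53 for CsA, -0.30 for BH4 and -0.10 for ABH4, against the same untreated array. Directly against these arrays, the median of NIL was -0.29 from ABH4, -0.09 from BH4 and 0.17 from CsA. Relative to genes of like signal these were -0.20, 0.03 and 0.14. For 11 of the 16 the untreated allograft was the highest of the 5 allografts, against 19.7% of all genes.

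Immediate early genes, which respond within minutes to stress and handling of tissue, were lower in 18 of 19, but only Atf3 by at least 1.5-fold. The median was -0.29, or -0.21 relative to genes of like signal. Against the same untreated array it was -0.22 for ABH4, -0.38 for BH4 and -0.34 for CsA. Set directly against the others, NIL had a median of -0.09 from ABH4, -0.0019 from BH4 and 0.05 from CsA. For 10 of the 19 the untreated allograft was the highest of the 5 allografts, against 19.7% of all genes. Fos had signals of 661 with NIL and 891 without treatment and Myc 195 with NIL and 284 without treatment. Whether graft handling differed between the mice was not tested. Among 17 targets of the hypoxia-inducible factors 2 were at least 1.5-fold lower, against 5.33% of all genes, and 0 higher. The 2 were Ddit4, an inhibitor of mTORC1 (190.3 with NIL and 321 without treatment), and Adm, the vasodilator adrenomedullin (176 with NIL and 291 without treatment). Car9, carbonic anhydrase 9, had a log2 difference of 0.48, and Vegfa, the endothelial growth factor, had signals of 359 with NIL and 417 without treatment. The list's median of -0.24 was -0.05 relative to genes of like signal. Against the same untreated array the median was -0.17 for ABH4, -0.34 for BH4 and -0.27 for CsA. For 11 of the 17 the untreated allograft was the highest of the 5 allografts, against 19.7% of all genes. Among 16 p53 targets and apoptosis genes 1 was at least 1.5-fold lower, Sesn2, against 5.33% of all genes, with a median of -0.18, or -0.08. Mdm2, the ubiquitin ligase of p53, had 349 with NIL and 522 without treatment and the inflammatory caspase Casp4 267 with NIL and 372 without treatment.

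**Figure D3:**
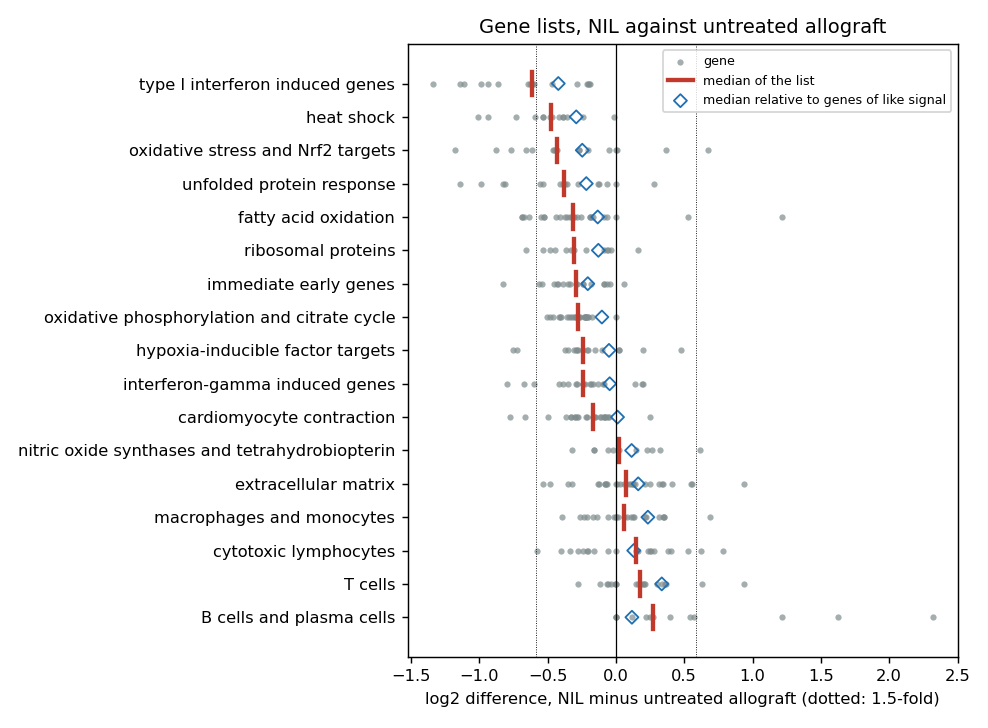
Grey points are the measured genes of 17 lists by log2 difference, NIL minus untreated allograft, with the list median (red bar) and the median relative to genes of like signal (blue diamond). Type I interferon induced genes have the lowest median (-0.61), and the interferon-gamma, hypoxia and cardiomyocyte medians lie near 0 once set against genes of like signal.

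T cell transcripts were not lower with NIL by 1.5-fold in any measured gene of the list. In bulk tissue fewer cells of a type and less RNA per cell cannot be told apart. Of 20 T cell genes 2 were at least 1.5-fold higher, where 6.37% of all genes were, and 0 lower, with a median of 0.17, or 0.34 relative to genes of like signal. Cd3e, a chain of the T cell receptor complex, had signals of 406 with NIL, 375 with ABH4, 259 with BH4, below the floor with CsA, 349 without treatment and below the floor in the syngraft. Cd8a, the co-receptor of cytotoxic T cells, had 269 with NIL, 310.0 with ABH4, 227 with BH4, 68.8 with CsA, 173 without treatment and below the floor in the syngraft, and Cd6, a receptor on T cells, had 228 with NIL, 174 with ABH4, 164 with BH4, 58.0 with CsA, 119 without treatment and 95.5 in the syngraft. The NIL array was at or near the top for each, unlike CsA, which lay below the floor for Cd3e and under 70 for the others. The same list had medians of 0.09 for ABH4, -0.35 for BH4 and -1.55 for CsA. Cd28, a costimulatory receptor of the list, had 116 with NIL and 89.9 without treatment, with another probe set of opposite sign.

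Cytotoxic lymphocyte genes were split within a narrow range. Of 21 genes 2 stood at least 1.5-fold higher and 0 lower (median 0.15, or 0.13 relative to genes of like signal). Gzmb, the main protease of cytotoxic granules, had signals of 3358 with NIL, 3703 with ABH4, 2973 with BH4, 346 with CsA, 3888 without treatment and below the floor in the syngraft. Gzma, another granule protease, had 1023 with NIL and 1353 without treatment, and Prf1, perforin, had 365 with NIL and 408 without treatment with another probe set of opposite sign. On the other side Gzmk, a granzyme of memory-type T cells, had 398 with NIL, 303 with ABH4, 229.6 with BH4, 72.6 with CsA, 231 without treatment and 49.2 in the syngraft, with NIL the highest array at 1.72-fold the untreated allograft. Klrc1, an NK and T cell receptor, had 182 with NIL and 118 without treatment, again with a probe set of opposite sign. Among 18 checkpoint and costimulation genes 3 were at least 1.5-fold higher, against 6.37% of all genes, and 0 were that much lower. A difference above 0 was seen in 10 and below 0 in 8. The 3 were Cd80 (71.4 with NIL and 46.6 without treatment), a ligand of CD28, Cd244a (113 with NIL and 69.8 without treatment), a receptor of NK and T cells, and Cd40lg (57.3 with NIL and below the floor without treatment). Cd80 and Cd40lg were dim, and in the second lowest signal bin 275 of 985 genes were that much higher.

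Antigen presentation and macrophage genes were also close. All 10 MHC class I and peptide loading genes and all 9 MHC class II genes were within 1.5-fold, with medians of -0.09 and 0.12. Relative to genes of like signal the class I median was 0.09, of the other sign, and the class II median 0.29. For class II, NIL was the highest of the 5 allografts for 6 of 9, where 15.5% of all genes had NIL highest. H2-Eb1, a class II chain, had signals of 3903 with NIL, 2928 with ABH4, 2278 with BH4, 1486 with CsA, 3384 without treatment and 1051 in the syngraft. Of 23 macrophage and monocyte genes 1 was at least 1.5-fold higher and 0 lower (median 0.06, or 0.23). That gene was Cd14, the co-receptor for bacterial lipopolysaccharide, at 864 with NIL and 537 without treatment. Cd68, a lysosomal marker of macrophages, had 933 with NIL and 799 without treatment. Gpnmb, a glycoprotein of lipid-laden phagocytes, had 153 with NIL, 108 with ABH4, 535 with BH4, 332 with CsA, 43.3 without treatment and 148 in the syngraft, 3.53-fold higher with NIL, but every treated array was above the untreated one. Il4i1, an amino acid oxidase of myeloid cells, had 133 with NIL and 41.9 without treatment. Its other signals were 66.0 with ABH4, 75.0 with BH4, 141 with CsA and 105 in the syngraft, all above the untreated allograft.

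Chemokine and cytokine genes showed scattered differences. Of 30 chemokines and receptors 1 was at least 1.5-fold higher and 1 lower, and of 33 cytokines and receptors 2 were higher and 2 lower, near the shares among all genes. Ccl3, a macrophage chemokine, had signals of 292 with NIL and 538 without treatment, 1.84-fold lower, while Cxcl13, the B cell chemoattractant, had 224 with NIL and 109 without treatment, with another probe set of opposite sign. Il1b had signals of 381 with NIL and 486 without treatment and Tnf 143 with NIL and 192 without treatment. Il10, the inhibitory cytokine, had 49.2 with NIL and 80.3 without treatment, and Il1r2, a decoy receptor for interleukin 1, 94.2 with NIL and 149.7 without treatment. Among 19 NF-kappaB targets 1 was at least 1.5-fold lower, Relb (115 with NIL and 179 without treatment), and 0 higher. Of the acute-phase proteins, Lcn2, which binds bacterial iron carriers, was 2.11-fold lower with NIL at 233 with NIL and 492 without treatment, and Hp, haptoglobin, 1.82-fold lower at 229 with NIL and 417 without treatment.

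Immunoglobulin transcripts were among the genes highest above the untreated allograft. Jchain, which joins secreted IgA and IgM, had signals of 1649 with NIL, 1840.2 with ABH4, 473 with BH4, 1313 with CsA, 534 without treatment and 225 in the syngraft. The values fell into higher arrays (NIL, ABH4 and CsA) and lower ones (BH4, untreated allograft and syngraft). Igha, the constant region of IgA, named after its values were seen, had the same division, with 4199 with NIL, 5725 with ABH4, 1890.4 with BH4, 3700.1 with CsA, 1809.7 without treatment and 454 in the syngraft. Igk had 241 with NIL, 263 with ABH4, 39.7 with BH4, 134 with CsA, 48.2 without treatment and below the floor in the syngraft, 4.99-fold higher with NIL by its brightest probe set. Of the 3 other Igk probe sets, those above the floor on either array differed by 0.35 and 0.27, and the mean over all Igk probe sets was 0.73 on the log2 scale. Iglv1, a lambda variable gene, had 134 with NIL and 41.9 without treatment. Igkv6-14, a kappa variable gene, had 127 with NIL and was below the floor without treatment, at least 3.65-fold higher. Probe sets for immunoglobulin segments can share sequence, so these are not separate measurements. Of 13 B cell and plasma cell genes 3 stood at least 1.5-fold higher, against 6.37% of all genes, and 0 lower (median 0.27, or 0.12 relative to genes of like signal). The 3 were Igk, Jchain and Cd22, an inhibitory receptor of B cells (145 with NIL and 62.5 without treatment, with another probe set at a log2 difference of 0.32). The B cell genes Cd79a and Ms4a1 were dim, at 61.7 with NIL and 51.1 without treatment and at 53.4 with NIL and 45.0 without treatment.

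Extracellular matrix genes did not stand above the untreated allograft with NIL as they did with the other treatments. These genes are made mainly by fibroblasts, and they were far lower in the untreated allograft than in the syngraft. Of 29 measured genes 1 was at least 1.5-fold higher and 0 lower with NIL, with a median of 0.08, or 0.16 relative to genes of like signal. Against the same untreated array the median was 0.68 for ABH4, 1.45 for BH4 and 2.30 for CsA. Set directly against the others, NIL had a median of -0.54 from ABH4, -1.42 from BH4 and -2.21 from CsA. Of the 29, 13 genes were at least 1.5-fold lower with NIL than with ABH4 and 25 lower than with BH4, where 4.3% and 6.06% of all genes were.

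Postn, periostin, a matrix protein of activated fibroblasts, had signals of 231 with NIL, 506 with ABH4, 1612 with BH4, 3019 with CsA, 219 without treatment and 3142 in the syngraft. Col1a1, the main collagen I chain, had 626 with NIL, 1513 with ABH4, 3877 with BH4, 4708 with CsA, 680.3 without treatment and 5537 in the syngraft. Its other probe set gave 139 with NIL and 134 without treatment. Col3a1, the collagen III chain, had 1565 with NIL, 3164 with ABH4, 4792 with BH4, 5594 with CsA, 1994 without treatment and 5542 in the syngraft, with NIL the lowest array. Mgp, an inhibitor of calcification, had 351 with NIL, 899 with ABH4, 1841 with BH4, 4696 with CsA, 318 without treatment and 6774 in the syngraft. In all 4 genes, by the brightest probe set, the NIL and untreated arrays were the lowest pair. The order ABH4, BH4, CsA ran upward, but the other Col1a1 probe set had 283 with ABH4, 671 with BH4 and 659 with CsA. The gene of the list that was higher was Eln, elastin, at 149.7 with NIL and 78.3 without treatment, where NIL also exceeded ABH4 (104) and BH4 (112). Timp1, an inhibitor of matrix proteases, had 1887 with NIL and 1419 without treatment, and Thbs1, thrombospondin 1, had 314 with NIL and 453 without treatment. Of 20 fibroblast genes outside the matrix, 3 were at least 1.5-fold above the untreated allograft, against 6.37% of all genes, and 0 below (median 0.13, or 0.09 relative to genes of like signal). Pdgfra and Tcf21, which mark cardiac fibroblasts, were below the floor on both arrays.

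**Figure D4:**
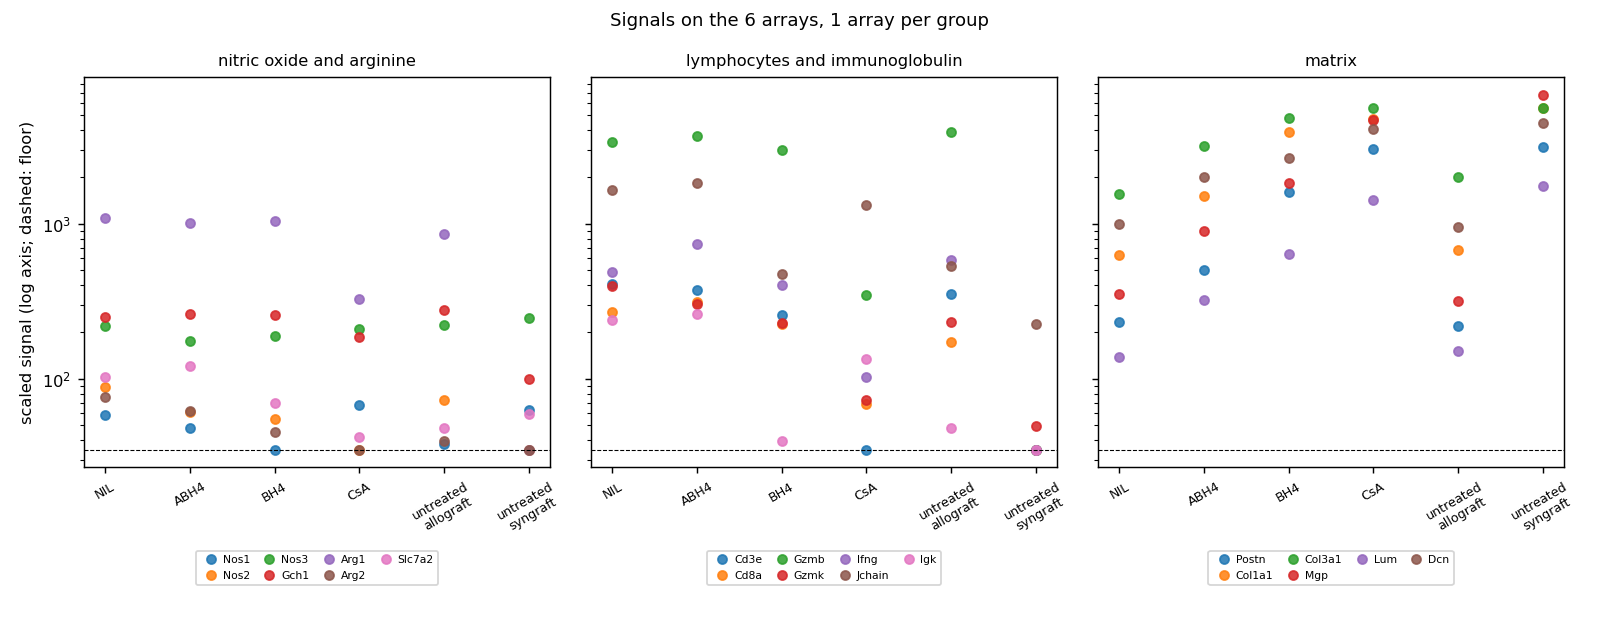
Points are the scaled signals (log axis) of named genes on each of the 6 arrays, with a dashed line at the floor of 34.8. Matrix genes stand low on the NIL and untreated allograft arrays (Postn 231 and 219) and higher with ABH4, BH4 and CsA, while lymphocyte genes stand low with CsA.

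Contractile and metabolic genes of cardiomyocytes, which are among the brightest on the arrays, were slightly lower, by about as much as other bright genes. Of 25 contractile genes 2 were at least 1.5-fold lower and 0 higher: Tcap, which caps titin (1763 with NIL, 2199 with ABH4, 2475 with BH4, 2961 with CsA, 3019.6 without treatment and 4455 in the syngraft), and Nebl, nebulette (121 with NIL and 191 without treatment). The median of -0.17 was 0.01 relative to genes of like signal. Pln, the inhibitor of the calcium pump, had 4162 with NIL and 5872 without treatment. Myh6, the main adult myosin heavy chain of the mouse heart, had 3363 with NIL and 3578 without treatment. Nppa, atrial natriuretic peptide, had 8001 with NIL and 8594 without treatment, near the top of the signal range. Smyd1, a muscle methyltransferase needed for sarcomere assembly, had 259 with NIL, 803 with ABH4, 901 with BH4, 662 with CsA, 563 without treatment and 1116 in the syngraft, so that NIL was at least 2-fold below every other array. Of its other probe sets 1 gave 124 with NIL and 192 without treatment, and 1 was just above the floor at 37.0 with NIL and 37.1 without treatment. Ankrd2, a stretch-responsive muscle protein, had 132 without treatment and was below the floor with NIL, at least 3.78-fold lower. It was also below the floor with CsA, and had 45.9 with ABH4 and 78.5 with BH4.

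Fatty acid oxidation genes were lower in 4 of 26 by at least 1.5-fold and higher in 1, against 5.33% and 6.37% of all genes. A difference below 0 was seen in 24, with a median of -0.31, or -0.13 relative to genes of like signal. For 10 of the 26 the untreated allograft was the highest of the 5 allografts, against 19.7% of all genes. Slc25a20, the carnitine carrier, had signals of 302 with NIL, 339.5 with ABH4, 459.8 with BH4, 309.8 with CsA, 486 without treatment and 214 in the syngraft. Cpt2, which releases the acyl group inside the mitochondrion, had 350.1 with NIL and 563 without treatment, with another probe set of opposite sign. The gene that was higher was Acot2, a mitochondrial thioesterase, at 82.2 with NIL and 35.5 without treatment. All 27 genes of the respiratory chain and citrate cycle were within 1.5-fold (median -0.28, or -0.10). Uqcrc1, a subunit of complex III, had 2330.0 with NIL and 3302 without treatment, and Cox8b and Cox7a1, of complex IV, had 1265 with NIL and 1771 without treatment and 619.9 with NIL and 853 without treatment. ABH4 had about the same medians, -0.35 for fatty acid oxidation and -0.28 for oxidative phosphorylation, and the arrays share the untreated one. Eno3, the muscle enolase, was 1.73-fold lower at 950.2 with NIL and 1646 without treatment, the only 1 of 15 glycolysis genes at least 1.5-fold apart. Pfkm, muscle phosphofructokinase, had 825 with NIL and 1171 without treatment, and Pfkfb3, a regulator of it with a probe set of opposite sign, 229.6 with NIL and 326 without treatment. Ribosomal protein genes were lower in 12 of 13, with a median of -0.30, or -0.13. Only 1, Rps6 (81.1 with NIL and 128 without treatment), was at least 1.5-fold lower, against 5.33% of all genes. Rplp0 had 3738 with NIL and 5408 without treatment and Rps9 2476 with NIL and 3451 without treatment.

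**Figure D5:**
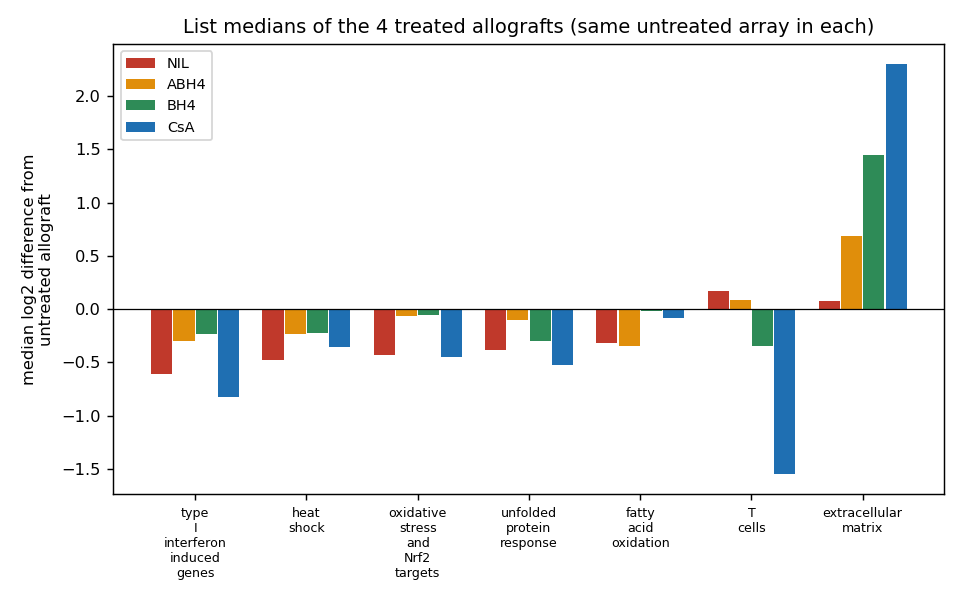
Bars are the median log2 differences of 7 gene lists for NIL, ABH4, BH4 and CsA, each minus the same untreated allograft array. The extracellular matrix bar is 0.08 for NIL and 0.68, 1.45 and 2.30 for ABH4, BH4 and CsA. The oxidative stress bar is -0.43 for NIL, -0.06 for ABH4, -0.06 for BH4 and -0.45 for CsA.

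Single genes with the largest differences were mostly dim. Apart from those above, the highest with NIL, bounds left out, were Fancc, of the Fanconi anaemia DNA repair complex (187 with NIL and 42.7 without treatment, with another probe set at a log2 difference of 0.31 and a mean over both of 1.22), the homeobox gene Hoxa9 (169 with NIL and 48.6 without treatment) and the copper pump Atp7b (143 with NIL and 42.5 without treatment). They continued with Dtx1, a regulator of Notch (155 with NIL and 50.2 without treatment), Scnn1a, a sodium channel subunit (118 with NIL and 43.9 without treatment), Wfdc18 (252 with NIL and 81.7 without treatment) and lactoferrin, Ltf (133 with NIL and 42.1 without treatment). Hoxa9 was also high with ABH4 (166) and CsA (177). The other probe sets of Hoxa9 and Atp7b were below the floor on both arrays. The lowest were Zdhhc12, a palmitoyltransferase (77.5 with NIL, 258 with ABH4, 337 with BH4, 199 with CsA, 334 without treatment and 74.9 in the syngraft), Tcim (56.2 with NIL and 155 without treatment), Bmyc (55.0 with NIL and 147 without treatment) and Tmem243 (43.1 with NIL and 112 without treatment). They continued with Btbd2 (84.2 with NIL and 208 without treatment), Dcxr, a xylulose reductase (58.6 with NIL and 144 without treatment), and the lymphocyte kinase Stk10 (59.4 with NIL and 145 without treatment). Stk10 was below 40 with BH4 and CsA and in the syngraft, and the untreated allograft held the highest value.

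Among genes at the floor on 1 array, Wdr36 was at least 5.45-fold higher with NIL (189 with NIL, with another probe set of opposite sign), Creb3l3 at least 4.01-fold, Cldn3 at least 3.48-fold and Msx1 at least 3.41-fold, with another Msx1 probe set at a log2 difference of 0.54. Wdr36 was between 132 and 189 on the 5 arrays other than the untreated allograft. The other Cldn3 probe sets were below the floor on both arrays, and the mean over its probe sets was 0.45 on the log2 scale. Lower with NIL were Zdhhc6, another palmitoyltransferase, at least 5.67-fold, Prkrip1 at least 3.95-fold, Spata5 at least 3.89-fold with another probe set of opposite sign, and Fbxl8 at least 3.34-fold. Zdhhc6 was below the floor on the NIL array and between 158 and 257 on the 5 others. Its second probe set differed by -1.92 on the log2 scale.

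The NIL array was at least 2-fold above every other array for 3 genes and at least 2-fold below every other array for 4, the counts being 50 and 164 for the syngraft and 2 and 6 for the untreated allograft. The 3 were Igkv6-14, Mapk8ip2 (114 with NIL, with another probe set of opposite sign) and Igll1 (86.8 with NIL). The other Igll1 probe set was below the floor with NIL and without treatment, and stood at 35.8 in the syngraft. The 4 were Zdhhc6, Smyd1, Plagl1, an imprinted zinc finger factor below the floor with NIL and between 71.2 and 309 elsewhere, and Tmem144 (314 with NIL and between 631 and 1031 elsewhere). For Tmem144 this rests on its brightest probe set, since the 2 others differed by -0.45 and -0.16 from the untreated allograft. For Zdhhc6 it also rests on the brightest probe set, since on the second the syngraft was below NIL.

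Markers of tissues other than heart muscle and immune cells were mostly dim. Of 16 salivary and glandular genes 7 were above the floor on either array, and 6 were at least 1.5-fold higher with NIL and 0 lower: Cldn3, Ltf, Wfdc18, Krt8, Krt18 and Bpifa2. The share higher was 6.37% among all genes, and in the second lowest signal bin 275 of 985 genes were that much higher. Summed over the list the scaled signal was 1040.3 with NIL and 513 without treatment. The salivary genes Smr3a, Pip, Amy1 and Lpo were below the floor on both arrays, while Bpifa2 was among the 6 higher. With BH4, 13 of the 16 genes were at least 1.5-fold above the untreated allograft, against 4.9% of all genes. There Wfdc18 had 1230, Ltf 274 and Cldn3 199, each above its NIL signal. Of 10 mast cell genes 2 were at least 1.5-fold higher (Cpa3 and Cma1) and 1 lower, all at dim signals. The lower gene was Hdc, histidine decarboxylase (40.5 with NIL and 82.6 without treatment). Cpa3 had 65.0 with NIL and 38.2 without treatment. Lists of adipocytes, skeletal muscle, red blood cells, nerve and mesothelium held 6 of 12, 8 of 14, 3 of 5, 6 of 9 and 3 of 7 genes above the floor on either array, too few for a median to say much. Of 10 atrial genes 6 were above the floor on either array. Myl4, an atrial myosin light chain, was higher (86.1 with NIL and 56.2 without treatment) and Kcnk3, a potassium channel, lower (187 with NIL and 285 without treatment), and the defining genes Myl7 and Sln were below the floor on both arrays.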

How the data were processed

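Intensities of 22690 Affymetrix probe sets on 6 arrays, 1 per group, were used as deposited by the authors. The deposited signals had equal means after trimming 2% at each end, and the software that made them is not given in the sources used here. From these, each array was rescaled to a common median of 22626 non-control probe sets, a floor was set at the 30th percentile (34.8) and log2 was taken. The 3 deposited values at or below 0 went to the floor. A gene was represented by its brightest probe set among 20380 listed for 1 gene. Another 691 listed several genes and 1555 none, and 20351 had a gene ID in the RefSeq table (GRCm38.p6). The number of arrays limits the precision, and no p-value was computed.

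Named genes were the 12 largest differences each way above the floor, the 5 largest bounds each way, genes with NIL at least 2-fold outside all other arrays, the 3 largest members of lists with a median at least 0.15 from that of all genes, and a set of nitric oxide, immune, matrix and heart genes. Other list members were named after their values were seen. Members and lists were chosen with earlier results of these data known. The calculation was tested on simulated data. Python 3.11.15, numpy 2.4.6, pandas 2.3.3 and matplotlib 3.10.9 were used. Alternatives covered scaling, floor, filter and choice of probe set.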

Additional observations from a re-analysis of the deposited data

Results flagged for a closer look

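Probe sets that entered no gene value also differed between the arrays. Among 1555 probe sets without a gene, 35 (2.25%) were at least 2-fold apart between the NIL and the untreated allograft, 24 higher and 11 lower with NIL. Among 691 probe sets listed for several genes, 13 (1.88%) were at least 2-fold apart, 6 higher and 7 lower. The share among 20380 probe sets of 1 gene was 2.21%.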

How the results depend on the processing

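No paired analysis was possible because each group had 1 array. Counts of genes depended on the floor and the scaling, and the cause was not tested. Genes at least 2-fold higher numbered 165 and lower 98, which became 269 and 53 on deposited values, 878 and 485 with the floor at the 10th percentile, 18 and 29 at the 50th, and 255 and 243 over all probe sets. The mean over probe sets gave 108 higher, and centring on genes of like signal, added after seeing the data, gave 174 lower. The share higher was 62.7%, against 83.5% on deposited values, 38.3% with the higher floor and 38.7% after centring. At least 1.5-fold higher were 790 and lower 661, against 1778 and 1224 with the lower floor, 174 and 433 with the higher one, 1268 and 1416 over all probe sets, and 348 lower on deposited values. The NIL array was 2-fold above every other array for 3 genes and below for 4, against 5 and 2 on deposited values, 68 and 83 with the lower floor, 0 and 2 with the higher one, and 2 below after quantile normalization. The glycolysis median turned to 0.028 after quantile normalization and 0.0079 after centring, and that of cardiomyocyte contraction to 0.012 after centring. Of 16 lists with a median at least 0.15 from that of all genes, 6 kept this after centring: type I interferon, heat shock, oxidative stress, unfolded protein response, immediate early genes and T cells. The numbers kept elsewhere were 9 on deposited values, 8 after quantile normalization, 14 and 13 with the lower and higher floors, and 14 with the mean over probe sets. Of the 6, immediate early genes did not keep it on deposited values, nor T cells with the mean over probe sets. Centring gave 10 such lists in all, adding MHC class II, NADPH oxidase, extracellular matrix and macrophages. On deposited values there were 22. Dim genes near the floor are the least certain.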

Other observations

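Vascular genes differed singly. Of 19 endothelial genes 1 was at least 1.5-fold higher with NIL, Pecam1, an adhesion protein of endothelial junctions (319.9 with NIL and 212 without treatment), and 2 were lower, with a median of -0.02 that was 0.10 relative to genes of like signal. Selp, the selectin that captures leukocytes on activated endothelium, had signals of 74.6 with NIL and 125 without treatment. Of 13 smooth muscle and myofibroblast genes 2 were higher and 1 lower. Tagln, a contractile protein of smooth muscle, had a log2 difference of 0.94, while Myocd, a coactivator that drives muscle genes, had 109.6 with NIL and 199 without treatment.

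Past 1.5-fold, 2 of 28 cell cycle genes were higher and 0 lower, both with another probe set of opposite sign. Mcm2, of the replicative helicase, had 460.5 with NIL and 276 without treatment, and Kif11, a spindle motor, had 96.2 with NIL and 58.8 without treatment. Among 16 genes of alternatively activated macrophages 3 were at least 1.5-fold higher and 1 lower. Chil3, a secreted chitinase-like protein, had 109.7 with NIL and 175 without treatment, the lowest of the allografts with NIL. Of 12 dendritic cell genes 3 were higher and 2 lower, among them Xcr1, a chemokine receptor of cross-presenting dendritic cells, at 104 with NIL and 45.8 without treatment. Ctsk, a collagen-degrading protease, had 97.1 with NIL and 59.7 without treatment and was the only 1 of 24 matrix protease and inhibitor genes at least 1.5-fold apart. These genes were named after their values were seen.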
